A study of Mus musculus with 8 samples.

Results

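The 9 genes described here, of 22367 protein-coding genes in the annotation, are Fos, Fosb, Fosl1, Fosl2, Jun, Junb, Jund, Atf3 and Egr1, and they were chosen by name and by their GENCODE vM1 positions on the mouse genome build mm9. Open chromatin around them was mapped by ATAC-seq, which lets the transposase Tn5 insert sequencing adapters wherever DNA is accessible. All 7 libraries, titled ATAC1 to ATAC7, came from stromal cells of the bone marrow of C57BL/6J mice that were wild type and 6 weeks old, and the peaks of each library were called against the same Input library. The study sorted stromal subpopulations by surface markers after collagenase digestion of bone fragments, so every library shares the digestion and a sorting step. The combination of markers differed between subpopulations, and no undigested cells were analysed here. The labels do not tie a title to a sorted population, so libraries are named by title. There was 1 library per title and thus no replicate: a difference between libraries is a difference between those libraries, and intervals cover counting error only.

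AP-1 is a dimer of a FOS family protein (Fos, Fosb, Fosl1, Fosl2) with a JUN family protein (Jun, Junb, Jund), and ATF family proteins such as Atf3 can pair with JUN proteins. The dimer binds the TRE, a short palindrome, and some dimers bind the related CRE. Fos, Fosb, Jun, Junb, Atf3 and Egr1, a zinc finger factor, are immediate early genes: serum, growth factors and stress switch them on within minutes without new protein synthesis, in part through serum response factor bound to CArG boxes and CREB bound to CRE-like sites. Jund is present in most cells without stimulation, and Fosl1 and Fosl2 are induced later, Fosl1 by AP-1 itself. In bone, Fosl2 and Jund are known for roles in osteoblasts and Fos for its role in osteoclasts.

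The sequences that the results below turn on were read from the mm9 genome (NCBIM37). They are shown because open regions were called on them in the libraries and because they hold matches of the motifs marked below. Whether the regions away from start sites act on these genes was not tested. Capitals mark CArG boxes, the CRE core TGACGT in either orientation, and, in the Jun sequence alone, the elements TGACATCA and TTACCTCA. The latter are the proximal and distal AP-1-like elements of the Jun promoter, through which JUN dimers act on their own gene. The CRE core, the Jun elements and the CTCF core searched further below were chosen after the sequences had been read.

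The Fos start-site region is shown from its upstream edge, chr12:86814495-86814794, plus strand, which ends before the annotated transcript begins. The 2 Fos regions away from any start site are at chr12:86796195-86796459 and chr12:86826983-86827137, plus strand, both between genes.
Fos start region: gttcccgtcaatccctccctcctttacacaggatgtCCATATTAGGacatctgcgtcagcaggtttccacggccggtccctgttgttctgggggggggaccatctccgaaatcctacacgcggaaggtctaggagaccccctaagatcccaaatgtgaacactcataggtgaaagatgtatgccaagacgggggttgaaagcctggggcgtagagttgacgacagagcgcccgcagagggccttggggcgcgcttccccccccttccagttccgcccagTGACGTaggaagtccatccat
Fos 18.5 kb upstream: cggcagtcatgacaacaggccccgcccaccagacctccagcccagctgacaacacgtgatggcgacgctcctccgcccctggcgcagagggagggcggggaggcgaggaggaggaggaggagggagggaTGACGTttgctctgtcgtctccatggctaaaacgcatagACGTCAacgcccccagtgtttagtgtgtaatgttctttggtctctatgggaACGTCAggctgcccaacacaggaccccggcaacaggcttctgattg
Fos 12.2 kb downstream: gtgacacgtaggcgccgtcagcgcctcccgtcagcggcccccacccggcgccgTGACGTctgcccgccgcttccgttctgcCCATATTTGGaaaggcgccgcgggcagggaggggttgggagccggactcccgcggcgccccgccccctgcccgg

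The 300 bases upstream of the annotated Jun start are at chr4:94718914-94719213, minus strand, and the region past the end of Junb is at chr8:87500288-87500570, given on the plus strand, which is opposite to the gene.
Jun upstream: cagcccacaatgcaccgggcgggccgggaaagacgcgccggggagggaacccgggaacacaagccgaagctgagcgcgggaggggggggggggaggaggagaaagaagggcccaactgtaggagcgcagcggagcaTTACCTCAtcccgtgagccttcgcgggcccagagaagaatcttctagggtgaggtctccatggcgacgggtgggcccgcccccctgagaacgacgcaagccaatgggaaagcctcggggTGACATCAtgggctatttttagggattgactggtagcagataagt
Junb downstream: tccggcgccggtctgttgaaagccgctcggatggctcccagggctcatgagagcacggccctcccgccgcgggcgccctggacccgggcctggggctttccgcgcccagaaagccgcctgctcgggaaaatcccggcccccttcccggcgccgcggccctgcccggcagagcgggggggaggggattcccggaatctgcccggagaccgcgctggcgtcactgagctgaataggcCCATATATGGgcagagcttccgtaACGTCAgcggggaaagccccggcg

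The 300 bases upstream of the Fosb start are at chr7:19895395-19895694, minus strand. Its capitals mark a CArG box and a match of the EGR site GCGNGGGCG, the sequence bound by Egr1. In the Fosb region 11.6 kb upstream, chr7:19906798-19907096, plus strand, capitals mark a TRE (TGANTCA).
Fosb upstream: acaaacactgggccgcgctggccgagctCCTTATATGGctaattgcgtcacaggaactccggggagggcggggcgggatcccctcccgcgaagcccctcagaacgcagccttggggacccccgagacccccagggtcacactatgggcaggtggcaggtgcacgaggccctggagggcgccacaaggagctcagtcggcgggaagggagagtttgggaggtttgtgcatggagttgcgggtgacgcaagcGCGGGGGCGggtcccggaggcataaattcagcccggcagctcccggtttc
Fosb 11.6 kb upstream: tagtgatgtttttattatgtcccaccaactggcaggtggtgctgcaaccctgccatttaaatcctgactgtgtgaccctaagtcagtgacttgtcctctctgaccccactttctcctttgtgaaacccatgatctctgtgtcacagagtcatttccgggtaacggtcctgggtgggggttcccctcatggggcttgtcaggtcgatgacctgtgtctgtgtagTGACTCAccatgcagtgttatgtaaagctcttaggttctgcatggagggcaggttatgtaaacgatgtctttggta

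The start sites of these genes were open in nearly every library. A gene was counted as called when the centre of a peak lay within 1000 bases of an annotated start site. All 9 genes were called in ATAC1, where 49.0% of protein-coding genes were called, in ATAC2 (50.2%), in ATAC3 (43.5%), in ATAC5 (52.7%), in ATAC6 (51.5%) and in ATAC7 (42.0%). In ATAC4, 8 of the 9 were called, beside 43.7% of protein-coding genes, and the gene that was not was Fosl2. Over all 7 libraries, 8 of 9 genes were called in each of them, beside 36.8% of protein-coding genes. Jund, Egr1 and Jun had a start-site peak among the best-ranked 10% of the peaks of every library, 3 of 9 genes beside 4.47% of protein-coding genes.

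To compare genes and libraries, the reads of the best-ranked start-site peak were taken per 1000 bases of its outer region, the wider interval in which the authors counted reads, and divided by the library's median over the 8428 regions called in all 7 libraries. This scaled level had a median of 1.07 over the 8238 protein-coding genes called in all libraries, with the middle 50% of those genes between 0.841 and 1.38. By its median over libraries, the order of the 9 genes was Jund (2.11), Egr1 (1.69), Jun (1.57), Fosl2 (1.40 over 6 libraries), Junb (1.32), Fos (1.12), Atf3 (1.10), Fosb (1.05) and Fosl1 (0.752). The ranges over libraries of each pair of neighbours in this order overlapped. For Fosl2 the peak used in ATAC2, ATAC5, ATAC6 and ATAC7 lay 782 to 961 bases upstream of the start, so its place rests mostly on that peak. Within libraries, Jun stood above Fosl2 in 6 of 6 libraries with both genes called, in 5 of them with separate counting intervals. Jund stood above Egr1 in 5 of 7 libraries, and Fosb above Fosl1 in 6 of 7, each with separate intervals in 5 and with no library the other way round by separate intervals. The other 5 pairs of neighbours each had at least 1 library with separate intervals in the reverse order. On this scale the ends of the order did not overlap: the lowest level of Jund was 1.69, in ATAC2, while the highest of Fosl1 was 0.855, in ATAC7. The order depended on the measure. By the authors' fold over Input, divided by the library's median fold, Jun came before Egr1 and Jund, Fosb was last, and Jund and Fosl1 overlapped, Fosl1 reaching 1.49 in ATAC7 while Jund was at 1.46 there and at 1.05 in ATAC2. When all start-site peaks were summed Fosb moved to the place behind Jund.

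**Figure D1:**
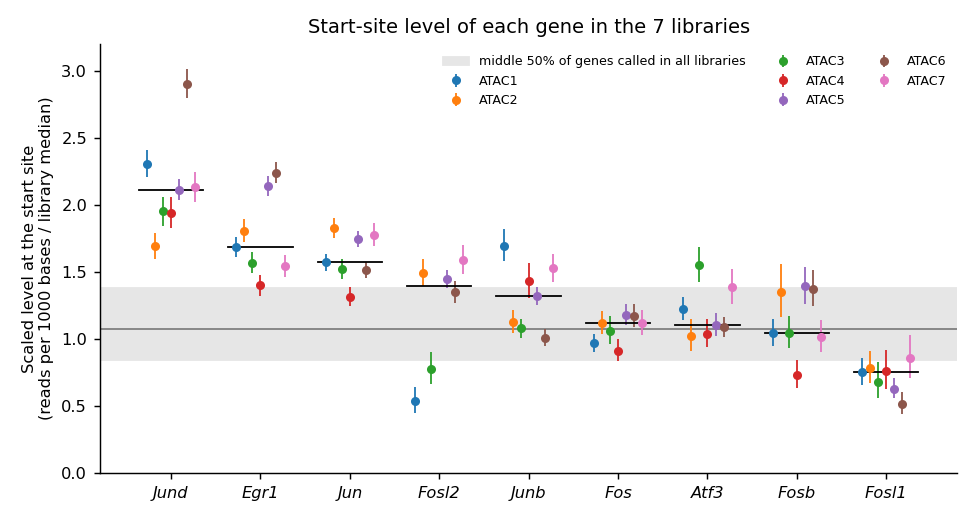
Scaled level (no unit; reads per 1000 bases over the library's median in regions called in all libraries) at the best-ranked start-site peak of each gene, with 1 point per library and 95% Poisson intervals. Black lines are medians over libraries, the grey line and band are the median (1.07) and the middle 50% of genes called in all libraries, and the points of Jund, with a median of 2.11, all lie above those of Fosl1, with a median of 0.752.

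Jun, the partner in most inducible AP-1 dimers, had its peak directly on the annotated promoter in all 7 libraries, with the best peak of each library starting within 28 bases of the others. Its reads were 2316 (ATAC1), 2308 (ATAC2), 1608 (ATAC3), 1310 (ATAC4), 3240 (ATAC5), 2685 (ATAC6) and 1702 (ATAC7), against 113 to 189 Input reads. The fold over Input ran from 12.9 in ATAC4 to 29.4 in ATAC5, and the scaled level only from 1.31 (95% interval 1.24 to 1.39) in ATAC4 to 1.83 (1.75 to 1.90) in ATAC2. The merged region, chr4:94718877-94719077, lies on the start of Jun and in an intron of the overlapping gene BC042782. It holds both AP-1-like elements printed above, the proximal one 45 bases and the distal one 164 bases upstream of the start. Among the 300 bases upstream of all 22367 protein-coding genes, 2.995% held TGACATCA and 0.791% held TTACCTCA.

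Jund, a JUN protein known for steady expression, had the highest median scaled level of the 9 genes. It was highest in 5 of 7 libraries, while in ATAC2 its level of 1.69 lay below those of Jun (1.83) and Egr1 (1.81), and in ATAC5 Egr1 stood at 2.14 and Jund at 2.11. Its best peak held 2167 reads (ATAC1), 1159 (ATAC2), 1298 (ATAC3), 1131 (ATAC4), 2754 (ATAC5), 2862 (ATAC6) and 1364 (ATAC7). Among libraries, its scaled level was highest in ATAC6, at 2.90 (2.80 to 3.01), and no other library reached that interval, the next being ATAC1 at 2.31. All of these peaks lay at the start annotated at position 73222857 of chromosome 8, within the merged region chr8:73222677-73222874, and not at the outermost annotated start, 1.1 kb away. The longer transcript annotates this region as untranslated. When only the outermost start was used, Jund was called in ATAC1 and ATAC2 and in no other library. The region held 3 matches of the EGR site and 1 of the CRE core.

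Junb, a JUN protein that can restrain Jun, had between 478 reads (ATAC4) and 1539 reads (ATAC5), with a median of 835. Its scaled level was highest in ATAC1 (1.70, interval 1.58 to 1.82) and lowest in ATAC6 (1.01, 0.949 to 1.07). The level went with how the caller divided the promoter. In ATAC1, ATAC4 and ATAC7, with 2 start-site peaks, the best peak had an outer region of 725 to 1231 bases and levels of 1.43 to 1.70. In ATAC2, ATAC3, ATAC5 and ATAC6, with 1 peak, the outer region was 1353 to 2032 bases and the level 1.01 to 1.32. Whether the division accounts for the difference was not tested. Junb was the gene of the 9 whose fold over Input was highest in ATAC1, at 15.3, where 1.93% of genes called in all libraries had their highest fold. That fold rested on 66 Input reads, beside 116 to 191 in the libraries with 1 start-site peak.

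Fos was nearer to the middle of all genes. Its start-site peak held 812 reads (ATAC1), 680 (ATAC2), 398 (ATAC3), 468 (ATAC4), 927 (ATAC5), 722 (ATAC6) and 560 (ATAC7), against 61 to 102 Input reads. The scaled level ran from 0.912 in ATAC4 to 1.18 in ATAC5, a ratio of 1.30 between the highest and the lowest library, while the median ratio over all genes called in all libraries was 1.54. The CArG box printed above lies 309 to 300 bases upstream of the Fos start, at the position of the serum response element, and the CRE core TGACGT lies 66 bases upstream. Among the protein-coding genes whose scaled level was most like that of Fos over the 7 libraries were Gphn (Pearson r = 0.979) and Bdh1 (r = 0.970). For Jun the 3 most alike were Saal1 (r = 0.980), Zfp948 (r = 0.972) and Gm12824 (r = 0.968). With 7 libraries, 54 of 8237 genes had r over 0.9 with Fos and 37 with Jun, so these are descriptions of a ranking and carry no test.

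Fosb, the inducible FOS protein with a shorter splice form, had weaker single peaks. Its best peak held 192 reads (ATAC2) to 417 reads (ATAC6), and in 5 libraries 2 and in ATAC2 3 peaks lay at the start site. The level was lowest in ATAC4, at 0.732 (0.633 to 0.842). The fold over Input was under 5 in ATAC3, ATAC4 and ATAC7. Its upstream CArG box begins 272 bases and its EGR site 50 bases before the start.

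Fosl1 had the lowest median reads of the 9 genes, 155. They ran from 103 (84.1 to 125) in ATAC3 to 284 (252 to 319) in ATAC5, and its peak stood at a median rank of 43.0% of the library's list, beside 18.0% over all genes called in all libraries. No CArG box, EGR site, TRE or CRE was found in the 300 bases upstream of Fosl1, and its start-site region held a TRE.

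Fosl2 was the gene with the most uneven start-site signal, and the unevenness lay in a separate peak about 1 kb upstream. Between 1500 and 500 bases upstream of its single annotated start, ATAC2 had a peak of 850 reads, ATAC4 of 706, ATAC5 of 1769, ATAC6 of 1133 and ATAC7 of 879, against 113 to 161 Input reads. ATAC1 and ATAC3 listed no peak in this interval. ATAC1 listed 24510 peaks in all and ATAC7, which had the upstream peak, listed 15188. At the start itself ATAC1 had a peak of 129 reads (108 to 153) and ATAC3 of 165 (141 to 192). There ATAC2 also listed a peak of 130 reads, ATAC6 of 159 and ATAC7 of 187, while ATAC4 and ATAC5 listed no separate one. The scaled level of the best start-site peak was 0.538 in ATAC1 and 0.774 in ATAC3, taken at the start. It was between 1.35 and 1.59 in the 4 other libraries that called the gene, taken at the upstream peak. These levels thus do not compare the same peak. In ATAC4 the upstream peak was centred 1205 bases from the start, outside the window of 1000 bases, and with a window of 2000 bases Fosl2 was called in ATAC4 too. A peak absent from a list shows only that the caller did not list it, since reads outside the listed peaks were not used here.

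Atf3 held 297 reads (ATAC2) to 763 reads (ATAC6). Its level was highest in ATAC3, at 1.55 (1.42 to 1.68), and its median of 1.10 was close to the median of all genes. Egr1, on chromosome 18, held 1218 reads (ATAC4) to 3104 reads (ATAC6), and its levels in ATAC5 (2.14) and ATAC6 (2.24) stood above the other 5 libraries, whose highest was 1.81. Its start-site region held 5 CArG boxes, between 407 and 74 bases upstream of the start.

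By fold over Input, 6 of the 9 genes were highest in ATAC5 and 2 in ATAC6, while 6 were lowest in ATAC4 and 3 in ATAC3. At the high end, of the 8238 genes called in all libraries, 55.7% were highest in ATAC5 and 39.0% in ATAC6. At the low end, 42.2% of the same genes were lowest in ATAC7, where none of the 9 was, 36.3% in ATAC3 and 19.2% in ATAC4. On the scaled level, 4 of the 9 were lowest in ATAC4, beside 14.8% of genes.

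No other protein-coding gene starts within 50 kb of Fos. Away from its start site, 2 regions between genes were called in all 7 libraries. The region 18.5 kb upstream held 993 reads (ATAC1), 669 (ATAC2), 667 (ATAC3), 496 (ATAC4), 1107 (ATAC5), 1277 (ATAC6) and 693 (ATAC7), against 53 to 66 Input reads. Its fold over Input, from 10.6 in ATAC4 to 33.0 in ATAC6, was higher than that of the Fos start-site peak in 7 of 7 libraries, by 1.56 to 2.23 times. It stood among the best-ranked 4.77% of the list in ATAC6 and 18.6% in ATAC4. The printed sequence holds the CRE core TGACGT at 3 places.

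The region 12.2 kb downstream of the Fos start held 287 reads in ATAC4 to 592 in ATAC6, with a fold of 5.19 in ATAC3 to 14.3 in ATAC6. In none of the 7 libraries did its fold exceed that of the start site, the ratio being 0.776 to 0.971, and with 54 to 72 Input reads in the region a difference of this size is near the counting error of a single library. By the caller's rank the order was the reverse: the region stood ahead of the start-site peak in 7 of 7 libraries, at 9.59% to 15.7% of the list against 12.1% to 22.6%. Its 155 bases have a GC content of 76.1% and hold a CArG box and a CRE core TGACGT, the same pair of motifs as in the start-site region. Further peaks 3 to 6 kb downstream of the start were listed in ATAC2, ATAC5 and ATAC7 and in no other library.

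**Figure D2:**
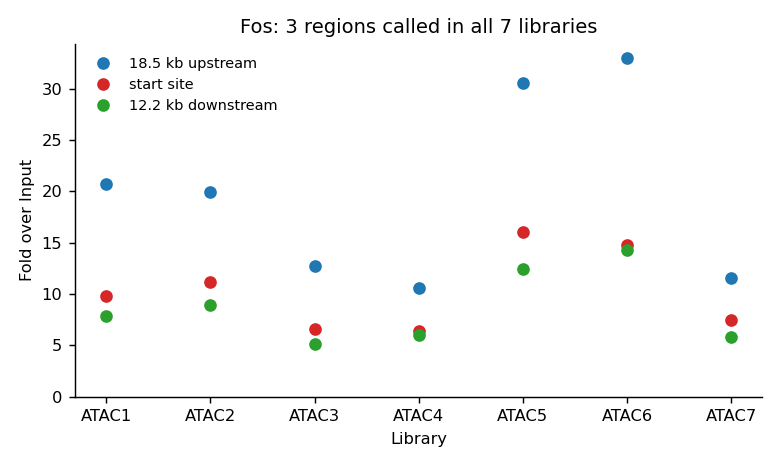
Fold over Input (no unit) of the Fos start-site region and of the 2 regions away from start sites, with 1 point per library. The region 18.5 kb upstream lies above the start site in each of the 7 libraries, between 10.6 and 33.0, and the region 12.2 kb downstream lies below it, between 5.19 and 14.3, although the caller ranked it ahead of the start site in each library.

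At Junb, 2 regions past the end of the gene were called in all 7 libraries. The nearer, centred 2.2 kb downstream of the start, held 687 reads (ATAC1), 527 (ATAC2), 482 (ATAC3), 395 (ATAC4), 752 (ATAC5), 996 (ATAC6) and 342 (ATAC7). Its sequence, printed above, holds a CArG box and a CRE core TGACGT. An inducible element past the end of Junb is known to hold a serum response element. The other, 3.1 kb downstream, held 76 to 236 reads and a match of the CTCF core CCANNAGNNGGC, the sequence of the insulator protein CTCF. A region 1.2 kb upstream of Junb, chr8:87503672-87503970, was called in every library but ATAC6, with 483 to 1136 reads.

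Fosb had 6 regions away from start sites that were called in all 7 libraries, more than any other of the 9 genes. In the order of transcription they lay 22.9, 17.1, 11.6, 9.8 and 6.8 kb upstream and 1.7 kb downstream, the last in an intron of Fosb. The best-ranked, 9.8 kb upstream, held 240 to 673 reads and had a fold of 6.32 to 17.2. The regions at 22.9, 17.1, 11.6 and 6.8 kb upstream each held a TRE. The region at 11.6 kb had few reads, 57 to 156, but a fold of 9.96 to 24.3. The neighbours Ercc1, Vasp, Ppp1r13l, Rtn2, Cd3eap and Ppm1n also start within the Fosb window, so a region there cannot be assigned to Fosb by its position alone.

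Jund and Egr1 had 1 such region each. That of Jund lay 15.5 kb upstream, held 78 to 213 reads and had a TRE. That of Egr1 lay 26.2 kb downstream, held 137 to 426 reads and had an EGR site. Jun, Fosl1, Fosl2 and Atf3 had none. By its best rank in any library, the leading region away from start sites lay 50.7 kb downstream of the Jun start in 3 libraries, 43.8 kb downstream of Fosl1 in 4 and 14.1 kb upstream of Fosl2 in 5 libraries. That of Atf3 lay 10.6 kb upstream and was called in every library but ATAC4, with a TRE and a fold of 10.3 to 18.1.

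**Figure D3:**
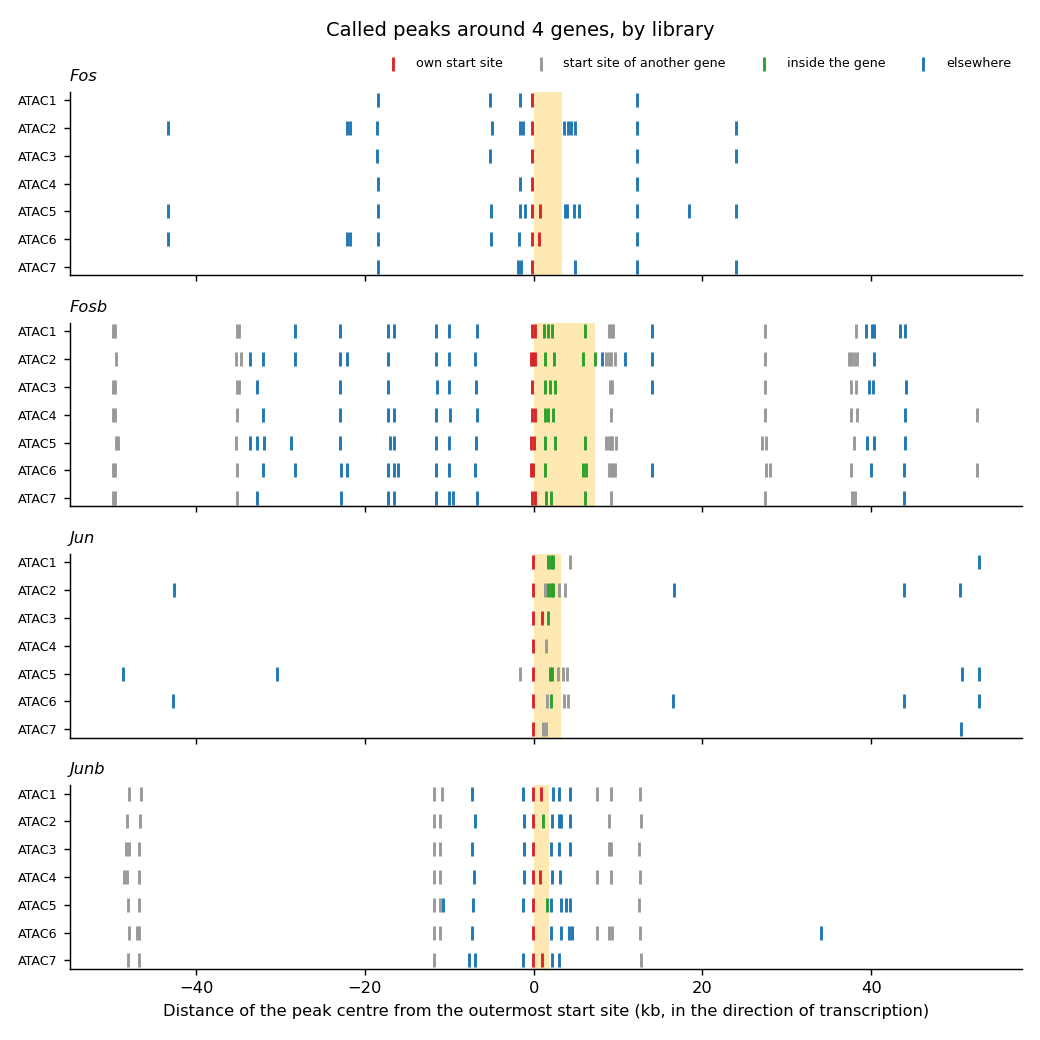
Centres of the called peaks around Fos, Fosb, Jun and Junb in each library, by distance from the outermost annotated start (kb, in the direction of transcription). Shading marks the gene, and colours mark peaks at its own start, at the start of another gene, inside it or elsewhere. The columns of marks at 18.5 kb upstream and 12.2 kb downstream of Fos, and the series upstream of Fosb, run through all 7 libraries.

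Counted over all peaks in or within 50 kb of a gene, ATAC1 had 95 peaks around the 9 genes, ATAC2 110, ATAC3 75, ATAC4 66, ATAC5 114, ATAC6 107 and ATAC7 69. As a share of the library's list these were 0.341% (Wilson 95% interval 0.283 to 0.411) in ATAC2 to 0.468% (0.374 to 0.586) in ATAC3, and the intervals of all 7 libraries overlapped. Of the peaks around the 9 genes, 33.3% in ATAC4 to 57.0% in ATAC5 lay away from start sites, while over each whole library this share ran from 24.3% in ATAC4 to 53.4% in ATAC2. In ATAC3 it was 44.0% (33.3 to 55.3) around the 9 genes beside 25.9% of the whole library, and in ATAC7 44.9% (33.8 to 56.6) beside 28.1%. In the other 5 libraries the whole-library share lay within the interval. Summed over libraries, Fosb had 183 peaks, Junb 97, Fosl1 74, Fos 58, Jund 53, Atf3 47, Jun 46, Fosl2 42 and Egr1 36, while the median protein-coding gene had 17. The windows differed in what the peaks were. Of the 74 peaks around Fosl1, 59 lay at start sites of other genes, and of the 58 around Fos none did.

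**Figure D4:**
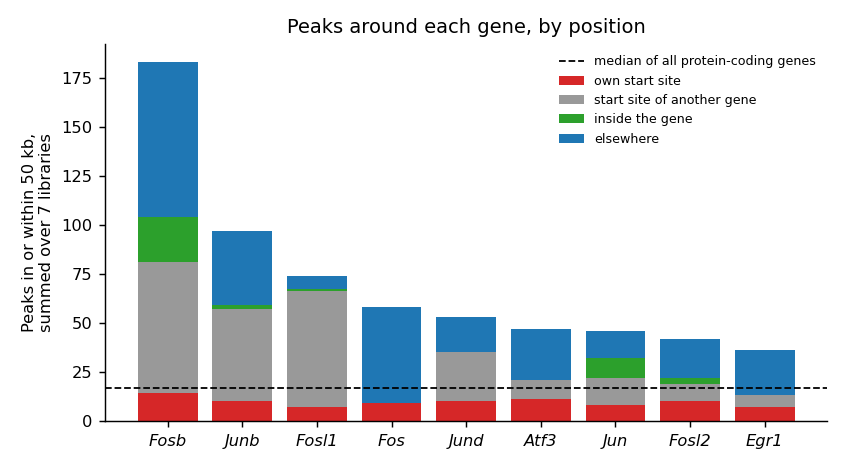
Number of peaks in or within 50 kb of each gene, summed over the 7 libraries and stacked by position. Fosb stands highest with 183 peaks, and all 9 genes stand above the dashed line, the median of 17 peaks over all protein-coding genes.

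Merging overlapping peaks of all libraries gave 165 regions around the 9 genes. Of these, 16 lay at the genes' own start sites, 50 at start sites of other genes, 8 inside the genes and 91 elsewhere. Of the 99 regions away from start sites, 12 were called in all 7 libraries, which is 12.1% (7.07 to 20), beside 3.97% of the 30406 regions away from start sites over the genome. Fosb accounted for 6 of the 12. Without the Fosb window, which was left out after the data had been seen, 6 of 72 such regions were called in all libraries, or 8.33% (3.88 to 17.0), an interval that includes the share over the genome. At start sites the share was 34.8% (24.5 to 46.9), beside 35.6%. At least 1 region of this kind lay in or within 50 kb of 5 of the 9 genes, beside 11.6% of protein-coding genes. Regions listed by no library other than ATAC2, ATAC5 and ATAC6, the 3 longest lists, made up 38.8% of the regions around the 9 genes and 47.2% of all regions.

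**Figure D5:**
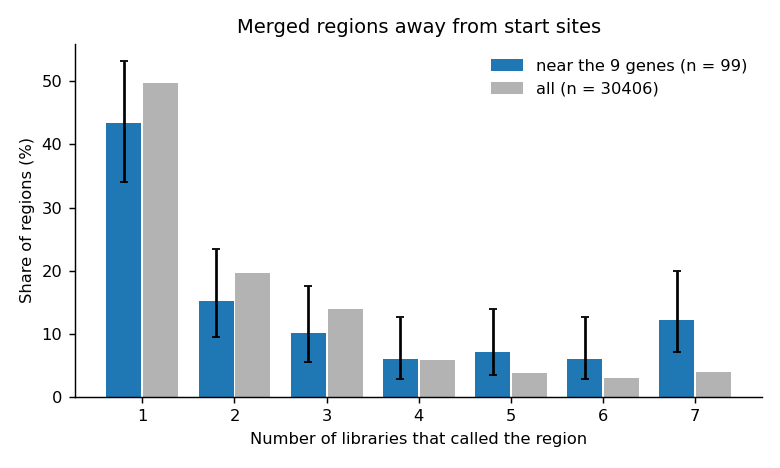
Share (%) of merged regions away from start sites by the number of libraries that called them, for the 99 regions around the 9 genes (blue, with 95% Wilson intervals) and for all 30406 (grey). The blue bar at 7 libraries stands at 12.1% and the grey at 3.97%, and in both sets regions of 1 library are the most frequent.

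The TRE, the main AP-1 site, took near-equal shares of the regions around these genes and over the genome. It was found in 19.4% (14.1 to 26.1) of the 165 regions, beside 19.2% of all 50683 regions, and away from start sites in 25.3% beside 26.4%. The full CRE TGACGTCA was found in 0 of 165, which allows a share of up to 1.82%, beside 1.42% of all regions. The EGR site was found in 5.45% beside 5.76%, the CTCF core in 4.85% beside 5.12%, and TGACATCA in 5 of 165 regions, beside 1015 of all 50683. The CRE core TGACGT, which was chosen after the sequences had been read, was found in 19 of 165 regions, 11.5% (7.497 to 17.3), beside 7.07% of all regions. Of the 12 regions away from start sites that were called in all 7 libraries, 6 held it, beside 13.4% of such regions over the genome. CArG boxes were found in 6 of 165 regions, 3.64% (1.68 to 7.71), beside 1.34% of all regions. The 6 were the start-site regions of Fos, Fosb and Egr1, the region 12.2 kb downstream of Fos, that 2.2 kb downstream of Junb, and a region in the Fosl1 window. All motifs were searched on both strands. No TRE lies within a CRE, while each CRE holds the core TGACGT on both strands. A match is a description of the letters and not a bound site.

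Other genes of the pathway were counted in lists. Of 16 other AP-1 and partner genes, 11 were called at the start site in all 7 libraries, beside 36.8% of protein-coding genes, and Batf, Atf7 and Nrl in none. The best-ranked were Crem, Creb1 and Atf2, at median ranks of 1.64%, 3.15% and 3.61% of the list, and the lowest Batf3 (61.6%, in 3 libraries), Maff (42.6%) and Maf (40.6%). Of 32 other immediate early genes, 28 were called in all libraries. Klf6, Klf10 and Klf2 were at median ranks of 0.580%, 1.05% and 1.76%, and Ctgf (70.5%), Egr3 (58.8%) and Ier3 (42.4%) were lowest. Egr4 and Csrnp1 were called in none, and Nfkbia in ATAC2, ATAC3 and ATAC5. Of 17 upstream kinases and factors, 14 were called in all libraries, led by the kinases Mapk8, Mapk9 and Map2k7 at 2.27%, 2.50% and 2.64%. Mapk10, the JNK of the nervous system, was called in ATAC5 alone, at 83.1%, and Rps6ka1 (47.1%) and Elk3 (39.2%) were the next lowest.

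Of 17 genes known as AP-1 targets in stromal cells, 5 were called in all 7 libraries, beside 36.8% of protein-coding genes, and 5 (ATAC4) to 11 (ATAC2, ATAC5 and ATAC6) in each, beside 42.0% to 52.7%. Vim, Cd44 and Hmox1 were best ranked, at 11.3%, 25.4% and 33.3%. The collagenase gene Mmp13 and the proteases Mmp2 and Mmp10 were called in none, Mmp3 in ATAC2 and ATAC5, Mmp9 in ATAC6, Ccnd1 in ATAC6, Ccl2 in ATAC5, and Spp1 in ATAC1, ATAC2 and ATAC6. Il6 (88.4%), Mmp9 (83.8%) and Spp1 (79.8%) had the lowest ranks. The lists differ in how many of their genes are open in most tissues, so they describe these genes and are not compared.

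The label of the cells was checked against markers. Of 12 stromal markers, 3 to 7 were called at the start site per library, Nt5e in all of them, Pdgfra in 5, and Ly6a, Lepr, Prrx1, Thy1 and Eng in none. Since 42.0% to 52.7% of all protein-coding genes were called per library, the stromal count does not set these cells apart by itself. Haematopoietic markers, 11 of 12 of which are annotated by the name used, numbered 1 to 5 per library, and endothelial markers 0 to 5, both highest in ATAC5, the library with the most peaks around the 9 genes and the highest share of all genes called. The defining haematopoietic genes Gata1, Csf1r, Mpo, Lyz2 and Cd3e and the endothelial genes Cdh5, Tek and Tie1 were called in none of the libraries. The part of other cell types in the values above was not tested.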

How the data were processed

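ATAC-seq libraries of sorted bone marrow stromal cells, 1 per title, were used as deposited peak tables. The authors aligned reads with bowtie to mm9 and called peaks per library by a two-sample comparison with Input in CisGenome (p limit 1e-05, FDR under 0.01). A Tn5 shift and the handling of duplicate reads are not given in the sources used here, and without a shift the edges of a peak would move slightly. Each peak of the deposited tables carries a rank, coordinates, whole-number counts of library reads and Input reads within an outer region, the authors' fold over Input (a ratio with an offset of 0.01 on the Input reads) and signal columns of the peak caller that were not used. Library depth beyond peaks is unknown. All folds share 1 Input, so they are not independent between libraries.

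Peaks were matched to GENCODE vM1 genes by peak centre (within 1000 bases of a start site, or within 50 kb of a gene). Overlapping peaks (at least 1 base) of the 7 lists, 164103 in all, were merged into 50683 regions. Coordinates are printed as the files give them. Read counts have exact Poisson and shares Wilson 95% intervals, and the limit for a share of 0 rests on 3 counts. No test was made, because each title had 1 library. Positions and overlaps were checked on simulated data. Alternatives were other windows, flanks, thresholds, merging rules, level scales and motif settings.

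The 9 genes and the gene lists were chosen with earlier results of these data known. In each list, genes called in 1 to 3 libraries and the 3 best and 3 lowest median ranks were named. The genes most like Fos and Jun were those with the highest Pearson r of the log2 scaled level. Some items that these rules name are not reported here. Regions named were those called in all libraries away from start sites and the best-ranked such region of each gene, and other regions were chosen after their values were seen. Versions were numpy 2.4.6, scipy 1.17.1, pandas 2.3.3, matplotlib 3.10.9 and Python 3.11.15.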

Additional observations from a re-analysis of the deposited data

How the results depend on the processing

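No paired analysis was possible because no title had a replicate. Of 121 values recomputed for the comparisons, 90 stayed within 1.5 times the reported count or within the interval of the reported share. Between 8 and 9 genes were called in all required libraries when each library was left out in turn, and 12 to 14 regions away from start sites; without the Fosb window these numbered 6. The alternatives on these regions beyond the planned ones were chosen after seeing the data. The number of peaks around the genes followed the flank by construction. In ATAC1 to ATAC7 in order it was 61, 70, 45, 40, 73, 66 and 45 with a flank of 20 kb, 154, 167, 117, 115, 177, 174 and 116 with 100 kb, and 11, 15, 10, 10, 13, 10 and 9 in the gene body alone. With a fold of at least 5, ATAC4 kept 41 peaks and ATAC7 42, and with an equal number of best-ranked peaks (15188) ATAC2 kept 53, ATAC5 58 and ATAC6 57. Merged regions numbered 102 when peaks within 500 bases were joined, 109 from outer regions and 101 from an equal number of peaks. A TRE was found in 13.9% of regions when 200 bases around the centre were searched, beside 16.1% of all regions. With a fold of at least 5, Fosb and Fosl2 were not called in all libraries, leaving 7 genes, beside 22.1% of protein-coding genes; with the outermost start alone, Jund and Fosl2 were not. With a window of 2000 bases all 9 genes were called in all libraries. Of the 27 recomputed median levels of single genes, 17 left the counting interval of the reported value, and 6 or 7 of the 9 genes stood above the median of all genes under each scale. Counting error limits small peaks most: the 103 reads of Fosl1 in ATAC3 have an interval of 84.1 to 125.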
